A study of Homo sapiens with 4 samples.

Results

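Oligosaccharyltransferase is the enzyme complex of the endoplasmic reticulum membrane that transfers a preassembled glycan from its dolichol carrier to asparagine residues of nascent proteins. The mRNAs of 10 of its subunits (STT3A, STT3B, RPN1, RPN2, DDOST, DAD1, OST4, OSTC, KRTCAP2 and TUSC3) were followed here, taken as all 18 probe sets, of 54675 on the array, whose single gene symbol in the platform annotation is one of these names. RNA bound to the fragile X protein FMRP, an RNA-binding protein, was recovered by immunoprecipitation (IP) and compared with the total RNA of the starting lysate. The subunits were chosen with this same IP and lysate comparison in view, because the very small subunits OST4 and DAD1 stood low in it, so their differences are given as a description. The calls printed for them come from the fit over all genes and are no independent test.

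All 4 samples came from FlpIn T-Rex HEK293 cells, a stable line made from the established human embryonic kidney line, in which a transgene integrated at a fixed site is switched on by an antibiotic. The transgene encoded FMRP with FLAG and HA tags and was induced in every sample with 1 µg/ml doxycycline for 16 h, so that the lysate carried the tagged protein too. The lysate group held 2 samples of RNA taken before the IP, and the IP group held 2 samples recovered with an anti-FLAG antibody and washed at 300 mM KCl. Each sample was hybridized to its own Human Genome U133 Plus 2.0 array from 2 µg of RNA. The series as analysed here holds no mock IP, and the labels do not say that the replicates came from separate cultures. The p-values below thus reflect the spread among these samples alone, and it may be technical.

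The complex exists in alternative forms. One is built around the catalytic subunit STT3A, which works on chains still entering the endoplasmic reticulum and is tied to the translocon through OSTC and KRTCAP2, and the other around the catalytic subunit STT3B, which joins an oxidoreductase subunit, TUSC3 or its paralog MAGT1, and can act later on sites that were skipped. RPN1, RPN2, DDOST, DAD1, OST4 and TMEM258 are shared by both forms. STT3A, STT3B, RPN1, RPN2 and DDOST are long membrane proteins, whereas DAD1, OSTC and KRTCAP2 are short and OST4 is a very short single-span peptide.

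The arrays had medians of 4.67 to 4.71 on the log2 scale and correlated across the 13157 genes tested with Pearson's r of 0.993 within the lysate, 0.992 within the IP and 0.873 to 0.903 between the groups; genes are not independent replicates. The HEK293 markers VIM, KRT8, KRT18, NEFL and INA had means of 8.98 to 12.81, and NEFM stood at 3.91, below the array medians. The 8 measured markers of other cell types had means from 2.74 to 5.72, and HBB (5.72), PECAM1 (5.41) and GFAP (4.89) lay above the array medians. FMR1, which encodes FMRP, stood at 9.64 and 9.51 in the lysate and at 9.28 and 9.03 in the IP. Because only 2 arrays were made per group, their number limits the precision.

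Of the 18 probe sets, 16 averaged 4.70 or more across the 4 arrays, a limit set at the middle of the array's probe sets, and each of the 10 genes kept at least 1. The probe sets left out were KRTCAP2 233122_at, with a mean of 3.81, and TUSC3 232770_at, with a mean of 4.61, while the lowest one kept was TUSC3 235801_at at 6.63. For a gene with several, the probe set with the highest mean stood for the gene. On that basis 7 of the 10 genes were lower in the IP, 1 was higher and 2 did not pass (limma, Benjamini-Hochberg adjusted p of at most 0.05), against 28.8% lower and 35.0% higher among all genes tested. The median change of the 10 genes was -0.85 on the log2 scale, against 0.080 for all genes. These counts describe genes chosen on this contrast, and nothing is read from them. Over probe sets, 10 of the 16 kept were lower and 3 were higher, against 28.3% and 33.2% of all 23516 probe sets kept.

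**Figure D1:**
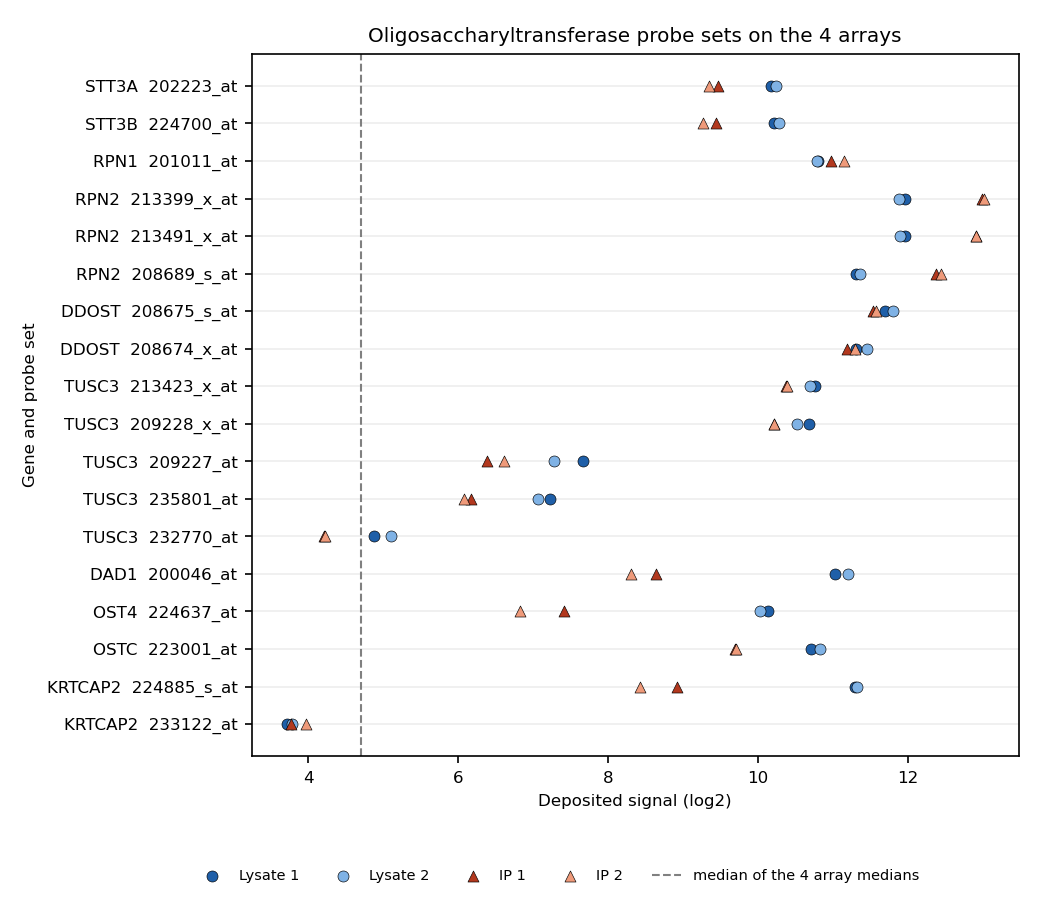
Deposited log2 signal (horizontal axis) of the 18 oligosaccharyltransferase probe sets (rows) on the lysate arrays (circles) and the IP arrays (triangles), with the dashed line at the median of the 4 array medians. The IP triangles lie far to the left of the lysate circles for DAD1, OST4 and KRTCAP2 224885_s_at, to the right for RPN2, and near the circles for RPN1 and DDOST.

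The catalytic subunits were moderately lower in the IP, and to nearly the same extent. STT3A stood at 10.18 and 10.24 in the lysate and at 9.46 and 9.35 in the IP (log2 signal). Both IP arrays lay below both lysate arrays, and the change was -0.81 ± 0.12 (log2, SE, n = 2 against 2), a signal 1.75-fold higher in the lysate. The SE given for a change is the moderated standard error of limma throughout. It borrows from the spread over all genes and is not the spread of that gene's arrays alone. STT3B stood at 10.21 and 10.28 in the lysate and at 9.44 and 9.26 in the IP. Again the groups did not overlap, and the change was -0.90 ± 0.12 (SE, n = 2 against 2), or 1.86-fold. The gap between the changes of these paralogs was 0.091. Its standard error of 0.17 combines those of both genes as if independent, though they were read on the same arrays. It therefore does not show whether the gap exceeds the spread between arrays.

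The large accessory subunits lay between -0.19 and 1.08 on the log2 scale. RPN2, or ribophorin II, is a transmembrane subunit common to both forms of the complex. Its leading probe set (213399_x_at) read 11.97 and 11.88 in the lysate and 12.99 and 13.01 in the IP, a change of 1.08 ± 0.11 (log2, SE, n = 2 against 2) and a 2.11-fold higher signal in the IP. The other RPN2 probe sets gave changes of 0.98 and 1.07, so that all 3 placed both IP arrays above both lysate arrays. All 3 carry the _s_ or _x_ mark of probes that can detect more than one transcript, and no unmarked RPN2 probe set was on the list.

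RPN1, or ribophorin I, helps to hold certain membrane protein substrates near the catalytic subunit. It stood at 10.80 and 10.79 in the lysate and at 10.97 and 11.15 in the IP. The IP arrays lay above the lysate arrays, but the difference of 0.27 ± 0.12 (SE, n = 2 against 2) did not pass, and it turned to -0.21 when the arrays were centred on their hybridization controls. DDOST, the subunit known as OST48, stood at 11.69 and 11.79 in the lysate and at 11.53 and 11.57 in the IP. Its difference of -0.19 ± 0.12 (SE, n = 2 against 2) did not pass, and the other DDOST probe set gave -0.14, with groups that also did not overlap. A lack of overlap was common on these arrays: it held for 82.3% of all genes and 81.3% of all probe sets kept, and for each of the 16 probe sets of these subunits.

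TUSC3, an oxidoreductase subunit with a thioredoxin-like domain that assists the STT3B form, was lower by an amount that depended on the probe set. Probe set 213423_x_at read 10.76 and 10.69 in the lysate and 10.37 and 10.38 in the IP, a change of -0.35 ± 0.11 (log2, SE, n = 2 against 2), and 209228_x_at gave -0.39. The unmarked probe sets read lower and changed more: 235801_at stood at 7.22 and 7.07 in the lysate and at 6.16 and 6.08 in the IP, and 209227_at at 7.67 and 7.28 and at 6.38 and 6.60. Their changes were -1.03 and -0.99, and the probe set left out for low signal changed by -0.78. All 5 TUSC3 probe sets had both IP arrays below both lysate arrays. The marked pair averaged -0.37 and the unmarked pair -1.01, and whether the _x_ probe sets detect other transcripts was not tested. TUSC3 no longer passed the threshold without any one of the 4 arrays, with changes of -0.32 and -0.39 without lysate replicate 1 and 2 and of -0.35 and -0.36 without IP replicate 1 and 2.

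Among the 10 genes, the 4 short subunits held the lowest changes. OST4, the very short peptide that stabilizes the contact of the catalytic subunit with its partners, stood at 10.14 and 10.03 in the lysate and at 7.41 and 6.82 in the IP. The IP arrays lay far below the lysate arrays, with a change of -2.97 ± 0.19 (log2, SE, n = 2 against 2), and only 6 of the 13157 genes had a lower one. DAD1, named as a defender against cell death and a core component next to the catalytic subunit, stood at 11.03 and 11.20 in the lysate and at 8.63 and 8.30 in the IP. Its change was -2.65 ± 0.15 (SE, n = 2 against 2), a signal 6.26-fold higher in the lysate, and 31 genes had a lower change.

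KRTCAP2, a short subunit of the STT3A form, stood at 11.29 and 11.31 in the lysate and at 8.92 and 8.43 in the IP. Its change of -2.63 ± 0.17 (log2, SE, n = 2 against 2), or 6.19-fold, was next to that of DAD1, with a gap of 0.017 between them. These values come from probe set 224885_s_at, which carries the _s_ mark. The other KRTCAP2 probe set, 233122_at, read 3.71 and 3.78 in the lysate and 3.77 and 3.97 in the IP. Those readings lie below the array medians, where no floor is known, and its groups overlapped. OSTC, the other short subunit of the STT3A form, was lower by much less: it read 10.71 and 10.83 in the lysate and 9.69 and 9.70 in the IP, a change of -1.07 ± 0.12 (SE, n = 2 against 2), or 2.11-fold.

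**Figure D2:**
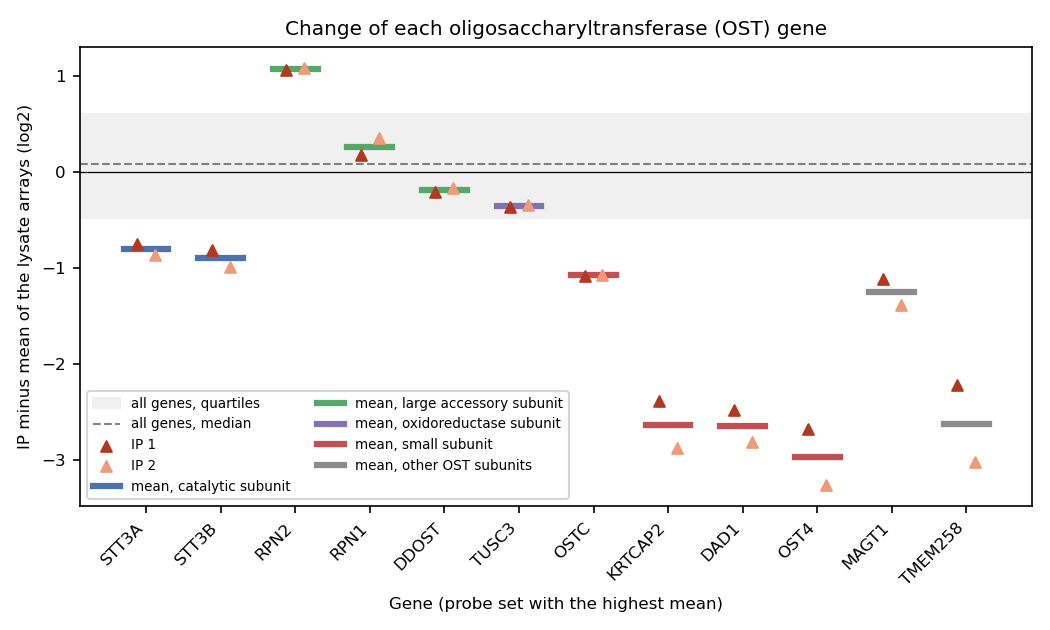
Log2 difference from the mean of the lysate arrays (vertical axis) for each oligosaccharyltransferase gene, with a triangle for each IP array, a bar for their mean coloured by the role of the subunit, and a band for the quartiles of all genes tested. DAD1, KRTCAP2, OST4 and TMEM258 lie between -2.97 and -2.62, the catalytic subunits and OSTC between -1.07 and -0.81, and RPN2 at 1.08.

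Ordered by change, the genes ran from OST4 through DAD1, KRTCAP2, OSTC, STT3B, STT3A, TUSC3, DDOST and RPN1 to RPN2. The place of TUSC3 and its gap to DDOST depend on the probe set. Its leading _x_ probe set changed by -0.35, whereas its unmarked kept probe sets, at -1.03 and -0.99, lay between OSTC and STT3B. OST4, DAD1 and KRTCAP2 lay close together, the gap between OST4 and DAD1 being 0.32 with a standard error of 0.24. The widest gap, 1.56 ± 0.21 (SE), separated KRTCAP2 from OSTC, both short subunits. OSTC lay only 0.18 ± 0.17 (SE) below STT3B. The gap was 0.16 ± 0.16 between TUSC3 and DDOST, 0.46 ± 0.17 between DDOST and RPN1, and 0.81 ± 0.17 between RPN1 and RPN2 (SE). Each standard error of a gap treats the genes as independent. Whether a gap exceeds the spread between arrays was not tested.

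Set against each other by size, the 4 short subunits had a mean change of -2.33 and the 2 catalytic subunits of -0.85 (log2). The difference of the means was -1.48, or -1.38 when IP replicate 1 alone was set against the lysate mean and -1.58 for IP replicate 2. The pooled SD of this difference between arrays of a group was 0.10. The comparison was proposed with these values known and is therefore a description. It is carried by OST4, DAD1 and KRTCAP2, since OSTC lay beside the catalytic subunits. The long subunits did not share a value either, as RPN2 lay above zero and STT3A and STT3B below.

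**Figure D3:**
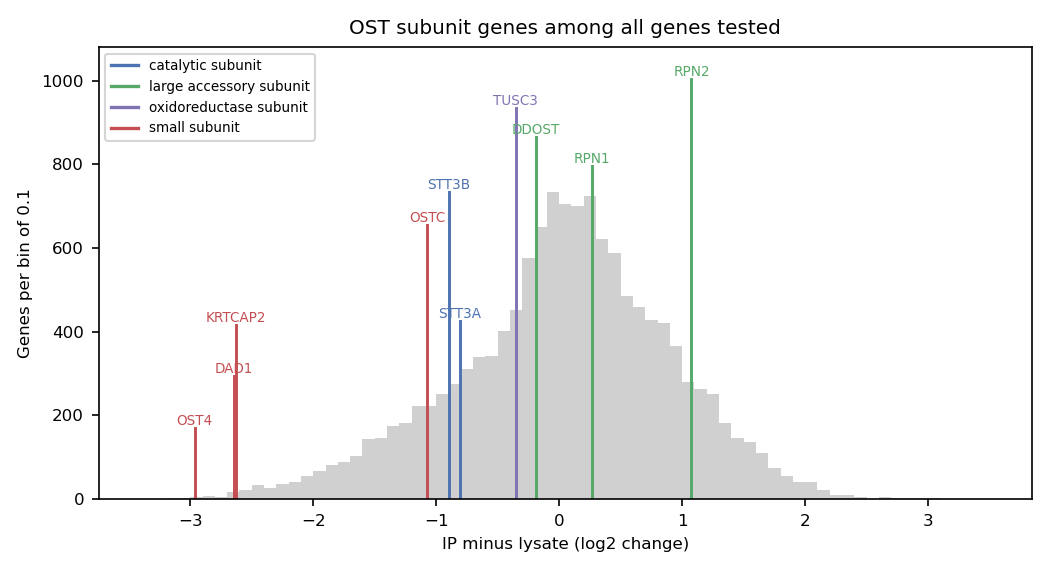
Number of genes (vertical axis) per bin of 0.1 in the log2 change from lysate to IP (horizontal axis) for all 13157 genes tested, with a line at the change of each oligosaccharyltransferase gene; line heights only separate the labels. OST4, DAD1 and KRTCAP2 lie at the low end, and 89.2% of genes lie at or below RPN2.

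The IP arrays differed from each other for OST4, KRTCAP2 and DAD1. IP replicate 2 read lower than IP replicate 1 by a difference of -0.58 for OST4, -0.49 for KRTCAP2 and -0.33 for DAD1 (log2), against a median difference of 0.0068 and quartiles of -0.13 and 0.13 over all genes. For OSTC the same difference was 0.015, for RPN2 0.018, for DDOST 0.041, and for STT3A and STT3B -0.12 and -0.18. Genes outside the complex with similarly low changes showed such a difference too, among them SPCS3 (-0.69), GNPNAT1 (-0.68), DPM3 (-0.52) and SSR4 (-0.40). The direction of every short subunit was nonetheless the same on each IP array: OST4 lay at -2.67 and -3.26 against the lysate mean, KRTCAP2 at -2.39 and -2.87, and DAD1 at -2.48 and -2.81.

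The remaining subunits measured here, TMEM258 and MAGT1, were both lower in the IP. They too were listed with earlier results of these data known, so their p-values are no independent test. TMEM258, a short shared subunit, stood at 11.70 and 11.73 in the lysate and at 9.50 and 8.69 in the IP, a change of -2.62 ± 0.24 (log2, SE, n = 2 against 2; limma adjusted p = 6.6e-05). It thus lay beside DAD1 and KRTCAP2, with a difference of -0.80 between the IP arrays. MAGT1, the paralog of TUSC3, stood at 11.67 on both lysate arrays and at 10.56 and 10.28 in the IP, a change of -1.25 ± 0.13 (SE, n = 2 against 2; limma adjusted p = 1.3e-04). Its other probe sets gave -0.63 and -0.98. The leading probe sets of TMEM258 and MAGT1 carry the _s_ mark.

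The genes whose values over the 4 arrays, each centred on its own mean, were nearest to those of OST4 were GPR160, TMEM230, ETFRF1, EMB and ANAPC16, at Euclidean distances of 0.074 to 0.13 on the log2 scale. Their changes were -3.01, -2.91, -2.86, -2.92 and -2.88. With 4 arrays in 2 groups this likeness is mostly a likeness of the change itself.

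Genes that build the dolichol-linked glycan, the donor used by the complex, or that supply its sugar precursors were lower on balance. This list and those below were written with earlier results of these data known, so their counts are a description. The genes named from them are those called that moved furthest, and their p-values are no independent test. Of 33 listed, 26 were measured, and 15 of them fell, 2 rose and 9 did not pass, against 28.8% lower and 35.0% higher among all genes. Their median change was -0.72, against 0.080 for all genes. GNPNAT1, which acetylates glucosamine phosphate on the way to the sugar donor UDP-GlcNAc, changed by -2.45 ± 0.21 (log2, SE, n = 2 against 2; limma adjusted p = 6.0e-05). DPM3, a short membrane anchor of dolichol phosphate mannose synthase, read 9.84 and 9.74 in the lysate and 7.61 and 7.09 in the IP, a change of -2.44 ± 0.18 (adjusted p = 3.7e-05). GFPT1, the first enzyme of the hexosamine pathway, rose by 1.31 ± 0.12 (adjusted p = 6.7e-05), and its other probe sets gave 0.42, 1.02 and 1.38.

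Genes that trim the transferred glycan or read it in quality control were higher on balance on the deposited scale. All 23 listed were measured, and 13 rose, 2 fell and 8 did not pass, against the same 35.0% and 28.8% of all genes. The list median was 0.44, against 0.080 for all genes. With hybridization control centring, which moves every gene by the same amount, it turned to -0.043, against -0.40 for all genes. On that scale 5 rose and 5 fell, against 2090 higher and 6385 lower of all 13157 genes. MOGS, the glucosidase that removes the first glucose, rose by 1.30 ± 0.13 (log2, SE, n = 2 against 2; limma adjusted p = 9.1e-05). MAN1B1, a mannosidase of glycoprotein degradation, rose by 1.20 ± 0.12 (adjusted p = 8.9e-05), and its other probe set gave 1.58. LMAN1, a lectin that carries glycoproteins out of the endoplasmic reticulum, changed by -0.67 ± 0.12 (adjusted p = 0.0015).

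Genes of the machinery that neighbours the complex at the membrane were mostly lower. Of 14 genes for the SEC61 translocon, the translocon-associated (TRAP) complex and the receptor for the signal recognition particle, 13 were measured, and 9 fell, 2 rose and 2 did not pass, with a median of -0.73, against 28.8% lower and 35.0% higher among all genes. With unmarked probe sets only, 10 were measured, all 10 fell and their median was -1.20. SSR4, a TRAP subunit, changed by -2.52 ± 0.16 (log2, SE, n = 2 against 2; limma adjusted p = 3.4e-05), and TRAM1, a translocating chain-associated protein, by -2.42 ± 0.17 (adjusted p = 3.5e-05), with other probe sets at -2.74 and -2.01. SEC61A1, the channel subunit, rose by 0.82 ± 0.12 (adjusted p = 7.0e-04), whereas its other probe set gave -0.90. That call was lost with hybridization control centring and with the average of all kept probe sets of a gene, where no gene of this list was called higher (limma; 1 and 0 at an unadjusted p under 0.05), and SEC61A1 has no unmarked probe set. All 5 signal peptidase genes fell, with a median of -2.05. The accessory subunits SPCS2 and SPCS3 changed by -2.26 ± 0.17 and -2.25 ± 0.21 (adjusted p = 3.8e-05 and 8.1e-05). Their leading probe sets carry the _s_ and the _x_ mark. The other kept probe sets gave -2.48 for SPCS2, and -2.38 and -1.14 for SPCS3. An SPCS2 probe set left out for low signal gave -0.82.

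**Figure D4:**
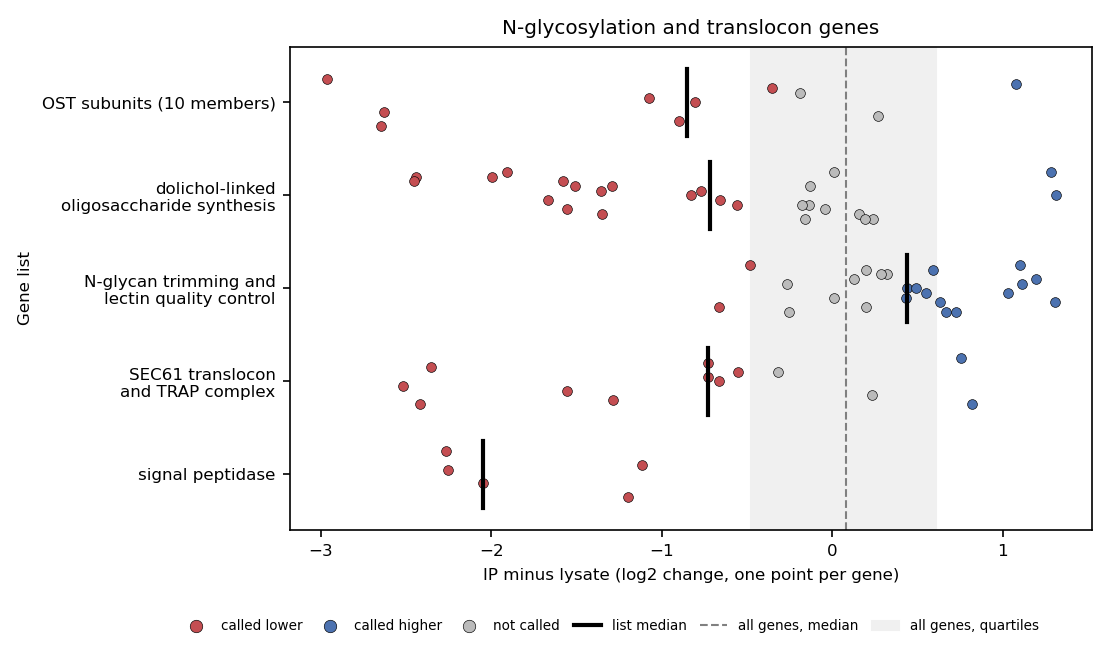
Log2 change from lysate to IP (horizontal axis) of each measured gene of the oligosaccharyltransferase and of 4 neighbouring lists (rows), coloured by its limma call, with a black bar at each list median and a band for the quartiles of all genes. The medians lie at -0.85 for the 10 subunits, -0.72 for dolichol-linked glycan synthesis with its sugar precursors, and 0.44 for trimming and quality control. Those of the translocon list and signal peptidase lie at -0.73 and -2.05. With hybridization control centring the trimming and quality control median was -0.043, against -0.40 for all genes.

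Every change depends on how the arrays were scaled before deposition. The hybridization controls, which are RNA species added for the hybridization step, read 0.48 higher on the IP arrays. They do not measure the RNA recovered in the IP. Centring each array on these controls moved every change by 0.48, and the median of all genes to -0.40. On that scale RPN2 changed by 0.60, 8 of the 10 subunits were called lower, DDOST among them at -0.67, against 48.5% of all genes, and STT3A and STT3B changed by -1.29 and -1.38. Of all calls, 24.7% were then higher, in place of 54.9%. The difference between the short and the catalytic subunits is unaffected by construction.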

How the data were processed

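The deposited table holds log2 probe set signals of 4 arrays; the log2 scale was read from their range, and how the authors corrected background, summarised probes and normalized is not given in the sources used here. Probe sets numbered 54675 and comprised 62 controls, 41091 with a single symbol in the platform annotation, 1801 with several and 11721 with none. Current symbols were taken from the GRCh38.p14 gene table by Entrez number for 41037.

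Probe sets with 1 symbol and a mean of at least 4.70 (23516) entered the fit, with the highest-mean probe set standing for a gene (13157 genes). R 4.3.3 and limma 3.58.1 (lmFit, then eBayes) gave the IP minus lysate contrast without covariates, on 2 residual and 5.51 prior degrees of freedom. Standard errors of changes are the moderated ones of this fit. P-values were adjusted by Benjamini-Hochberg over all genes, or all probe sets, and called at 0.05. The fit was tested on simulated data.

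The members and the gene lists were chosen with earlier results of these data known. Named genes are the members, the other subunits, per list the 2 called genes that moved furthest with the list median and the 1 that moved furthest against it, and the 5 genes nearest to OST4. Listed genes that share every probe set with another gene, or have none, were not analysed here. A planned summary by protein length was not run, because no protein table was used here. Alternatives covered scale, filter, choice of probe set, replicate block, intensity trend, threshold and leaving out each array.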

Additional observations from a re-analysis of the deposited data

How the results depend on the processing

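Of 97 recomputed changes of single subunits, 96 kept their sign, and the exception was RPN1, at -0.21 with hybridization control centring. Many of the 97 could not differ from the main value. Dropping the filter and adding the replicate block leave every change of these subunits as it was. The choice of probe set can alter only those with several kept probe sets. The difference between short and catalytic subunits ranged from -1.58 to -1.38 over 9 settings, the ends being those without IP replicate 1 and 2. It could not move with centring, no filter, averaged probe sets or the replicate block. With unmarked probe sets only, which drop KRTCAP2, it was not computed. Centring also moved the genes called to 6385 lower and 2090 higher and the probe sets called to 11234 and 3442. The trimming and quality control list went to 5 lower and 5 higher, with a median of -0.043 against -0.40 for all genes. The translocon list went to 0 higher (limma, with 1 at an unadjusted p under 0.05). Averaging all kept probe sets of a gene, 1 dolichol gene was higher, 4 trimming genes were lower and 0 translocon genes were higher (0 unadjusted). With unmarked probe sets only, RPN2, DDOST and KRTCAP2 had none left, 0 of 7 subunits and 0 translocon genes were higher (0 unadjusted for each) and 1 other subunit, MAGT1, was lower. With one array left out, 1 to 2 trimming genes were lower, the 1 without lysate replicate 1, and 6 subunits were called lower in each case, TUSC3 being lost; TUSC3 was also lost with no filter. The labels do not say that equal replicate numbers share a culture, and deviations of same-numbered arrays correlated at 0.10 over genes. With the replicate block, 3868 genes were lower and 4730 higher, and the subunits again numbered 7 lower and 1 higher. With no detection calls, low signals have no known floor. The cause of these shifts was not tested.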
